A study of Mus musculus with 4 samples.

Results

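The contrast described here sets tumour cells from ascites of mice given a PD-1 blocking antibody against tumour cells from mice given a control antibody. Cells were kept as tumour cells where they held at least 200 genes, at most 33% of UMIs from mitochondrial genes, at least 5115 UMIs in all, at least 5 UMIs of the epithelial and mesothelial genes Krt7, Krt8, Krt18, Krt19 and Wt1 together, and no UMI of Ptprc, the pan-leukocyte gene that encodes CD45. A UMI, or unique molecular identifier, stands for 1 captured RNA molecule. This gate held 15611 of the 46342 cells deposited for the series, 6829 from the control library and 8782 from the anti-PD-1 library. Both libraries came from C57BL/6 mice injected into the peritoneum with ID8-Trp53-/- cells, a mouse ovarian surface epithelial line that lacks Trp53, and engrafted for 7 days. The control mice then received DMSO and an IgG2a isotype antibody and the anti-PD-1 mice DMSO and the antibody clone RMP1-14, at 100 ng per dose as the labels give it, with 2 injections a week until about 3 mL of ascites had formed. Ascites was pooled within each treatment, so each side of the contrast was 1 library from 1 tumour line. The remaining libraries, BTYNB with isotype antibody (BTYNB, a small-molecule inhibitor of the RNA-binding protein Igf2bp1, at 50 mg/kg per the labels) and BTYNB with anti-PD-1, are called BTYNB and combination and are used for reference only. The study's methods state other amounts for both the antibody and BTYNB than the labels do, and which were given is not settled here.

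PD-1 is an inhibitory receptor of T cells, and its ligand PD-L1, encoded by Cd274, can be displayed by tumour cells. Interferon-gamma released by activated T and NK cells acts through JAK kinases, and it induces the transcription factor Irf1, large families of interferon-inducible GTPases, the MHC class I machinery, the MHC class II genes through Ciita, and Cd274 itself. The same signal can therefore raise both the antigen display that T cells read and the ligand that restrains them, and the study followed the ratio of MHC class I to PD-L1.

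With 1 library a side there is no replicate check, no test was possible and no p-value is given. UMIs were summed over the gated cells of a library and divided by their total to give CPM, the UMIs of a gene per 1000000 gated UMIs, and each gene is described by the log2 ratio of anti-PD-1 over control with its exact 95% interval. These intervals cover counting error only and say nothing of how much pools of mice differ. A gene is called higher or lower where the libraries differed at least 1.5-fold, which is 0.58 on the log2 scale. CPM compares 1 gene between libraries and not different genes, because transcript length was not taken into account. Host mesothelial cells, which also express keratins and Wt1, cannot be told apart from tumour cells by this gate.

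The gated cells held 73607707 UMIs in control and 73030643 in anti-PD-1, with medians of 9987 and 7870 UMIs per cell. They made up 86.9% and 72.2% of the deposited cells of these libraries, which shared 1 cell index. The genes of the gate, whose levels its rule helped to set and which therefore do not check the label, were Wt1 at 751 CPM in control and 634 CPM in anti-PD-1, Krt19 at 530.4 and 915 CPM, Krt18 at 376 and 699 CPM, Krt8 at 354 and 497 CPM, and Krt7 at 10.04 and 14.2 CPM. At the marker threshold, 69 control and 78 anti-PD-1 cells sat at exactly 5 marker UMIs inside the gate, and 30 and 35 at 4 just outside it. Another 272 and 334 cells passed every other step but carried a Ptprc UMI and were left out. Trp53 transcripts were counted at 25.7 CPM in control and 24.8 CPM in anti-PD-1, and since these sums do not show which part of the gene a UMI came from, they do not check the knockout.

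Most results are given for all gated cells and again without the cells that held at least 5 UMIs of Cd24a, Gkn2 and Krtdap together, here called Cd24a-high cells, the rest being Cd24a-low cells, and a value given once with no cell set named is for all gated cells. Cd24a encodes a surface glycoprotein that restrains phagocytosis, Gkn2 a secreted protein of the gastric mucosa and Krtdap a keratinocyte differentiation protein. Cd24a-high cells were 482 of 6829 gated cells in control, or 7.06% (6.46% to 7.69%, exact binomial), and 2632 of 8782 in anti-PD-1, or 29.97% (29.01% to 30.9%). They carried 9.48% of the gated UMIs in control and 34.4% in anti-PD-1. A fixed UMI threshold admits deeper cells more easily, and the Cd24a-high cells were deeper than the Cd24a-low cells in both libraries, at medians of 14014 against 9742 UMIs in control and 9275 against 7342 in anti-PD-1. The cells removed were of a different make-up on each side. In control, 1 of 482 held a Gkn2 UMI and the cells together carried 3080 Krtdap and 844 Cd24a UMIs, whereas in anti-PD-1 1617 of 2632 held Gkn2 and together carried 22924 Gkn2 UMIs. Just inside that threshold stood 119 control and 225 anti-PD-1 cells with a sum of 5, and just outside it 188 and 307 with a sum of 4.

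Across all gated cells, 12923 genes had at least 100 UMIs in either library. Of these, 962 (7.44%) were at least 1.5-fold higher in anti-PD-1 and 779 (6.03%) at least 1.5-fold lower, with a median log2 ratio of -0.093 over all genes. The far tail was one-sided, with 193 genes at least 4-fold higher and 12 at least 4-fold lower. Among Cd24a-low cells, 555 of 12449 genes (4.46%) were higher and 387 (3.11%) lower, the median was -0.047, and 41 and 6 passed 4-fold. Centring on the median gene by a median-of-ratios scaling moved these splits to 1183 higher and 499 lower in all gated cells, and to 637 and 300 in Cd24a-low cells. Of the 12449 genes counted in both cell sets, which share their Cd24a-low cells, 387 of the 723 higher genes stayed higher without Cd24a-high cells and 305 of the 759 lower genes stayed lower, while 4 went from higher to lower. Counts of called members in the lists below are to be read beside the shares over all genes. These were 7.44% higher and 6.03% lower in all gated cells, and 4.46% and 3.11% in Cd24a-low cells.

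**Figure D1:**
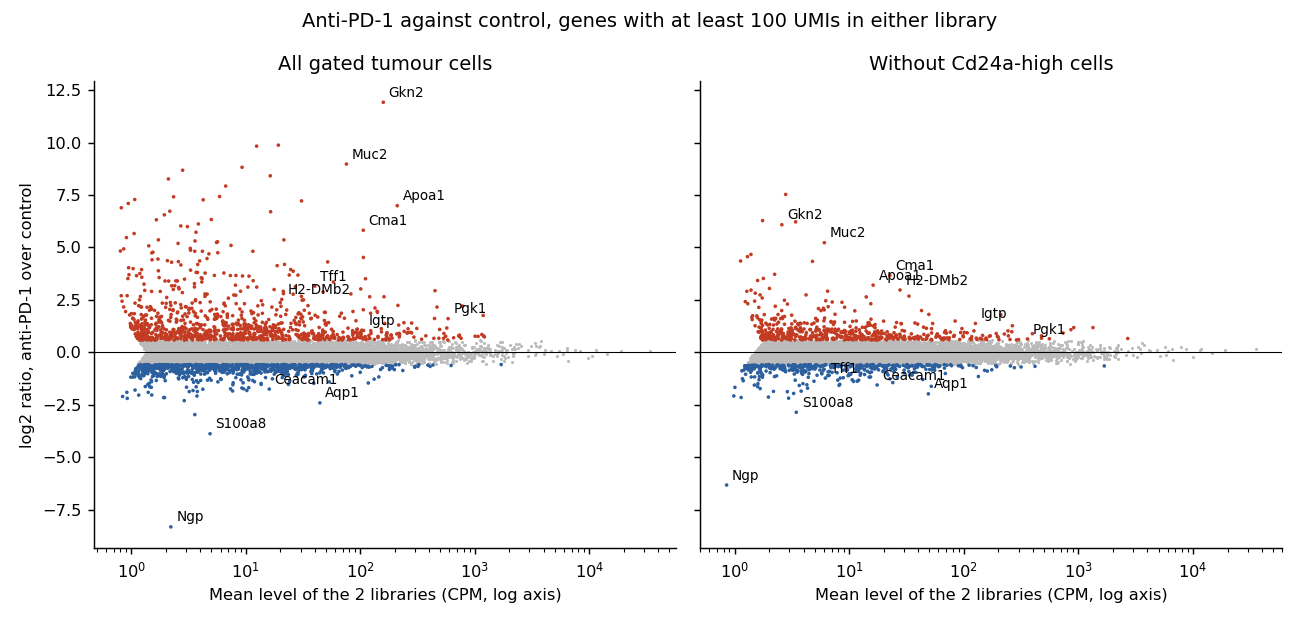
Each point is a gene with at least 100 UMIs in either library, placed by its mean level in the 2 libraries (CPM, log axis) and the log2 of anti-PD-1 over control, for all gated cells (left) and Cd24a-low cells (right). Red genes were at least 1.5-fold higher and blue genes at least 1.5-fold lower. Gkn2 stood at a log2 ratio of 11.93 on the left and 6.08 on the right.

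The promoters of 3 interferon-inducible GTPases with the highest log2 ratio in all gated cells, Gbp2b, Igtp and Gbp2, and of Cd274 are shown because interferon-activated transcription factors act through short elements near the start sites of such genes. The windows run from 250 bases before to 50 after the start site on the plus strand of GRCm38.p6 (RefSeq), at chr3:142594597-142594896 for Gbp2b, chr11:58199306-58199605 for Igtp, chr3:142620413-142620712 for Gbp2 and chr19:29367188-29367487 for Cd274, and differ in build from the GRCm39 used for the deposited counts. Capitals mark a match to a gamma-activated sequence (GAS, TTC then 3 free bases then GAA) or to an interferon-stimulated response element core (ISRE, GAAA then 2 free bases then GAAA), searched on both strands.

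Gbp2b: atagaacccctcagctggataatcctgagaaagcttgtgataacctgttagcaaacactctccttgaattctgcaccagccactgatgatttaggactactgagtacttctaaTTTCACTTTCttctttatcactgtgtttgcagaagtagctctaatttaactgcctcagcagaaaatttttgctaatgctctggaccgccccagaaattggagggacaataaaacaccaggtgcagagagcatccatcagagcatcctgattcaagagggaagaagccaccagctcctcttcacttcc
Igtp: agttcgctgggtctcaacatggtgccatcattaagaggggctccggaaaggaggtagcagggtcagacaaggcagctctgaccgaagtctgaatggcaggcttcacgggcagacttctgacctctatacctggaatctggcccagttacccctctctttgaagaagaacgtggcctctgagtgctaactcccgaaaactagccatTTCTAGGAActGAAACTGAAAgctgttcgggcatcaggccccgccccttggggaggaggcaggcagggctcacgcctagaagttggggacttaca
Gbp2: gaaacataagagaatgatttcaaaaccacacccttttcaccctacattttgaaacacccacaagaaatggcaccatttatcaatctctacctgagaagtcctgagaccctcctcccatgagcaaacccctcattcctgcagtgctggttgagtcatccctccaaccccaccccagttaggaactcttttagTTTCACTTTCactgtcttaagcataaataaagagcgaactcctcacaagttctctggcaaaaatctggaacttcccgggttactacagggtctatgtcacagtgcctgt
Cd274: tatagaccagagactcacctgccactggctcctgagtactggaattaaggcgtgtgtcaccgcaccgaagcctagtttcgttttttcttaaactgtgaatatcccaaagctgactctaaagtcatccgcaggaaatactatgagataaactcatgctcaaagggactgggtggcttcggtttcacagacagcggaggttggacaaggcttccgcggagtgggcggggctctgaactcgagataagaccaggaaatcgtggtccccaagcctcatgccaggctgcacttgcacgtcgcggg

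Igtp held a GAS match starting 45 bases before its start site and an ISRE core 34 bases before it, with no overlap between them. Gbp2 held an ISRE core 59 bases and Gbp2b one 137 bases before the start site, and the Cd274 window held neither pattern, which says only that these letters are not in this window. Over the 32851 promoters of the table, 8.3% held a GAS match and 3.44% an ISRE core. The table held 12 promoters of 11 of the 20 GTPases, of which 6 held a GAS match and 10 an ISRE core. For the MHC class II list these numbers were 1 and 1 of 10 promoters, and for the glycolysis and hypoxia list 2 and 1 of 43.

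Interferon-inducible GTPases, which attack the vacuoles of intracellular pathogens, stood higher in anti-PD-1 tumour cells for most members, and by more once Cd24a-high cells were set aside. Of 19 members counted, 5 were at least 1.5-fold higher and 0 lower in all gated cells, with a median log2 ratio of 0.33 beside -0.093 over all genes, and in Cd24a-low cells 11 of 18 were higher and 0 lower, with a median of 0.70 beside -0.047. Over all genes, 7.44% were higher in all gated cells and 4.46% in Cd24a-low cells. Igtp, the immunity-related GTPase also known as Irgm3, stood at 69.97 CPM in control and 143 CPM in anti-PD-1, a log2 ratio of 1.03 (0.99 to 1.08). In Cd24a-low cells Igtp stood at 70.1 CPM in control and 182 CPM in anti-PD-1, a ratio of 1.38 (1.33 to 1.43). Gbp2, a guanylate-binding protein, stood at 158 CPM in control and 283 CPM in anti-PD-1 in all gated cells, a log2 ratio of 0.84 (0.81 to 0.88), and at 155 and 374 CPM in Cd24a-low cells, a ratio of 1.27 (1.23 to 1.3). Over all Cd24a-high cells this was not seen. Igtp stood there at 68.4 CPM in control and 69.4 CPM in anti-PD-1, and Gbp2 at 179.8 and 109 CPM. Cd24a-high cells with 0 Gkn2 UMIs, 481 in control and 1015 in anti-PD-1, held Igtp at 68.1 and 110 CPM. Their Gbp2 stood at 180.1 and 203.6 CPM. The 1617 Cd24a-high cells of anti-PD-1 with a Gkn2 UMI held Igtp at 43.8 CPM and Gbp2 at 48.7 CPM. Control had 1 such cell. Iigp1, which strips pathogen vacuoles, had a ratio of 0.55 (0.50 to 0.60) in all gated cells and 0.95 (0.89 to 1.0) in Cd24a-low cells. Irgm2, a regulator of the effector GTPases, gave 0.50 (0.46 to 0.54) and 0.78 (0.74 to 0.83) in the same order, and Gbp7 gave 0.59 (0.53 to 0.65) and 0.96 (0.90 to 1.02). Not all members were higher, since Tgtp1 had a log2 ratio of -0.079 (-0.38 to 0.22) and Gbp10 of 0.077 (-0.14 to 0.29) in Cd24a-low cells. Gbp2b, the member with the highest ratio in all gated cells, rested on 32 control and 114 anti-PD-1 UMIs, for 1.84 (1.27 to 2.46). Tgtp1 and Tgtp2, and several Gbp genes, are near-identical copies whose UMIs the counting may have split, so single values for them are uncertain.

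The signalling genes upstream stood closer to the centre, with 1 of 19 members higher and 1 lower in all gated cells (median -0.054) and 2 of 18 higher and 0 lower in Cd24a-low cells (median 0.12). Socs1, the feedback inhibitor of JAK kinases, had a ratio of 0.74 (0.56 to 0.93) in Cd24a-low cells. Irf1, the interferon-gamma-induced activator of MHC class I genes, had 0.40 (0.35 to 0.44) in all gated cells and 0.50 (0.45 to 0.55) in Cd24a-low cells, under the 1.5-fold call in both. The receptors were not higher: Ifngr1, the ligand-binding chain for interferon-gamma, had -0.59 (-0.69 to -0.48) and -0.36 (-0.48 to -0.25), and Ifnar1 of the type I receptor had -0.41 (-0.52 to -0.31) and -0.23 (-0.34 to -0.11). Ifng itself was sparse in both whole libraries, with 6 UMIs in 6 of 7858 control cells and 11 UMIs in 10 of 12163 anti-PD-1 cells. Few cells of these libraries were leukocytes, 305 in control and 334 in anti-PD-1 by a Ptprc UMI and fewer than 5 marker UMIs.

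Genes known chiefly as type I interferon-stimulated genes did not share the pattern of the GTPases. Of 33 counted, 2 were higher and 7 lower in all gated cells with a median of -0.27, and in Cd24a-low cells 2 of 31 were higher and 2 lower with a median of -0.073. Ifit1, an antiviral RNA-binding protein, stood at 8.3 CPM in control and 4.42 CPM in anti-PD-1, a log2 ratio of -0.91 (-1.11 to -0.71), and at -0.62 (-0.83 to -0.41) in Cd24a-low cells. Oas1g, an oligoadenylate synthetase gene, had -1.27 (-1.6 to -0.95) and -0.91 (-1.27 to -0.56), and Ifi44 had -0.83 (-0.92 to -0.74) and -0.46 (-0.56 to -0.37). In all gated cells the 2 higher members were Isg20, an exonuclease, at 0.70 (0.66 to 0.74) and Mx1, an antiviral GTPase, which had 21 control and 374 anti-PD-1 UMIs, a ratio of 4.17 (3.53 to 4.87) with 87.2% of the latter in Cd24a-high cells, and in Cd24a-low cells it had 19 and 48 UMIs, under the count minimum, for 1.81 (1.02 to 2.66). The 2 higher members in Cd24a-low cells were Zbp1, a sensor of Z-form nucleic acid, at 0.76 (0.70 to 0.82), and Isg20 at 0.66 (0.62 to 0.71). Isg15, a ubiquitin-like modifier, had -0.20 (-0.33 to -0.076) in all gated cells and 0.10 (-0.031 to 0.24) in Cd24a-low cells.

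The classical MHC class I heavy chains, which present peptides to CD8 T cells, were modestly higher. H2-K1 stood at 2106 CPM in control and 2733 CPM in anti-PD-1, a log2 ratio of 0.38 (0.37 to 0.39), and in Cd24a-low cells at 2088 and 3292 CPM, a ratio of 0.66 (0.65 to 0.67) that passed the 1.5-fold call. H2-D1 had 0.17 (0.16 to 0.18) and 0.34 (0.33 to 0.35) and stayed under the call in both cell sets. B2m, the shared light chain, had -0.10 (-0.11 to -0.093) in all gated cells and 0.062 (0.054 to 0.07) in Cd24a-low cells, so its direction turned with the cell set. Across the class I list 0 of 10 counted members were higher and 0 lower in all gated cells (median 0.11), against 2 and 0 of 10 in Cd24a-low cells (median 0.34), the second higher member being the non-classical H2-M3 at 0.73 (0.65 to 0.81). The peptide-loading and immunoproteasome list had 0 of 14 higher and 1 lower in all gated cells (median 0.15), and 4 higher and 0 lower in Cd24a-low cells (median 0.43). Those 4 were the peptide transporter subunits Tap1 at 0.76 (0.72 to 0.80) and Tap2 at 0.81 (0.73 to 0.89), the immunoproteasome subunit Psmb9 at 0.68 (0.63 to 0.72) and tapasin (Tapbp) at 0.64 (0.62 to 0.67). Psme2, a subunit of the PA28 proteasome activator, went the other way, at -0.71 (-0.75 to -0.66) in all gated cells and -0.54 (-0.59 to -0.49) in Cd24a-low cells, the latter under the call. Nlrc5, the class I transactivator, had 0.049 (-0.054 to 0.15) and 0.36 (0.24 to 0.47).

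Cd274, which encodes PD-L1, stood at 8.44 CPM in control and 17.1 CPM in anti-PD-1, from 621 and 1250 UMIs, a log2 ratio of 1.02 (0.88 to 1.16). In Cd24a-low cells it stood at 8.46 and 20.3 CPM, a ratio of 1.26 (1.11 to 1.41), and in Cd24a-high cells at 8.17 and 11.1 CPM. The gain in Cd274 was larger than that of the class I heavy chains, and fewer UMIs of H2-K1 and H2-D1 together were counted per Cd274 UMI in anti-PD-1. This ratio was 486 (449 to 526) in control and 290.3 (275 to 307) in anti-PD-1 in all gated cells, 479 (441 to 522) and 285 (268 to 304) in Cd24a-low cells, and 549.7 (424 to 726) and 307 (273 to 347) in Cd24a-high cells. For reference the ratio was 379 (352 to 408) in BTYNB and 251 (237 to 266) in combination, so anti-PD-1 lay between these libraries. Cd274 UMIs were few, and the intervals of the ratio are set by them. Among the ligands of inhibitory or phagocytic receptors, Cd274 included, 4 of 14 were higher and 1 lower in all gated cells with a median of 0.01. Another of the higher members was Cd24a, at 33.2 CPM in control and 208 CPM in anti-PD-1, which itself helped to define the Cd24a-high cells. Nt5e, the ectoenzyme CD73 that makes adenosine, had 1.25 (1.05 to 1.45) and 1.11 (0.88 to 1.33) in the order all gated and Cd24a-low, and Vtcn1, the B7 family ligand B7-H4, had 0.44 (0.27 to 0.61) and 0.88 (0.70 to 1.06). Ceacam1, a ligand of the T cell receptor TIM-3 and of itself, was the lower member, at 24.7 CPM in control and 7.31 CPM in anti-PD-1, a ratio of -1.75 (-1.9 to -1.61), and -1.56 (-1.72 to -1.41) in Cd24a-low cells. Cd47, the signal that restrains macrophages, had -0.15 (-0.17 to -0.12) and Lgals9, which encodes galectin-9, -0.17 (-0.21 to -0.13), both under the call.

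MHC class II genes, which epithelial cells express when interferon-gamma induces Ciita, were the list with the highest median in Cd24a-low cells among those on antigen display. In all gated cells 4 of 10 were higher and 0 lower, with a median log2 ratio of 0.44, and in Cd24a-low cells 7 were higher and 0 lower, with a median of 0.84. The shares of all genes called higher were 7.44% and 4.46% in the same order. H2-Aa, the alpha chain of I-A, stood at 794 CPM in control and 1343 CPM in anti-PD-1, a ratio of 0.76 (0.74 to 0.77), and in Cd24a-low cells at 819.8 and 1854 CPM, a ratio of 1.18 (1.16 to 1.19). H2-Eb1, the beta chain of I-E, had 0.76 (0.74 to 0.77) and 1.18 (1.16 to 1.2), and H2-Ab1 had 0.52 (0.50 to 0.54) and 0.92 (0.90 to 0.94) in the same order. The invariant chain Cd74 had 0.16 (0.15 to 0.18) in all gated cells and 0.56 (0.54 to 0.57) in Cd24a-low cells, just under the call. Ciita itself had 0.37 (0.26 to 0.48) and 0.76 (0.65 to 0.88). H2-DMb2, a chain of the peptide exchange factor H2-DM, had the highest ratio of the list, 2.52 (2.38 to 2.67) and 2.97 (2.82 to 3.12), but its copy H2-DMb1 had -0.07 (-0.13 to -0.012) and 0.28 (0.22 to 0.34), and UMIs of this pair may have been divided between them in counting. The Cd24a-high cells of anti-PD-1 held less class II RNA, with H2-Aa at 366 CPM against 546 CPM in those of control.

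Macrophages also express class II genes, and RNA of macrophages in the gated cells moved in the same direction. Of 12 macrophage markers counted, 11 were higher and 1 lower in anti-PD-1, their summed level was 52.6 CPM in control and 122 CPM in anti-PD-1, and none of the counted markers was at 0. Lyz2, the lysozyme gene of macrophages, stood at 15.7 CPM in control and 39.5 CPM in anti-PD-1, and C1qb at 3.48 and 9.31 CPM, while Retnla was the lower marker, at 2.49 and 1.12 CPM. At least 1 UMI of 6 macrophage genes was found in 10.1% of gated control cells and 14.97% of gated anti-PD-1 cells. The gated cells held 50.6 H2-Aa UMIs per Lyz2 UMI in control and 34.03 in anti-PD-1, whereas the Ptprc-positive leukocytes of the same libraries, cells with a Ptprc UMI and fewer than 5 marker UMIs, held 0.509 and 0.579. Among Cd24a-low cells with no UMI of those 6 genes, H2-Aa was 815 CPM in control and 1836 CPM in anti-PD-1, Igtp 70.1 and 179.6 CPM, and Cd274 8.41 and 20.5 CPM. With those cells kept, H2-Aa in Cd24a-low cells was 819.8 and 1854 CPM. Red cell RNA differed as well, with 5 of 5 erythroid markers counted higher in anti-PD-1, Hbb-bs at 5.57 and 14.2 CPM among them, and the part of red cell RNA in the results was not tested.

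The lists of this paragraph are small, and 7.44% of all genes were higher in all gated cells and 4.46% in Cd24a-low cells. Complement genes, several of which respond to interferon-gamma, showed 1 of 10 members higher and 0 lower in all gated cells (median 0.051) and 3 higher and 0 lower in Cd24a-low cells (median 0.35). Serping1, the C1 inhibitor, had 0.68 (0.64 to 0.73) and 1.02 (0.97 to 1.07), and C2, a protease component of the classical pathway, had 0.50 (0.40 to 0.60) and 0.86 (0.76 to 0.97), both among the higher members in Cd24a-low cells. Of 9 chemokine and growth factor genes that draw T cells or monocytes, 3 were higher and 1 lower in all gated cells (median 0.10). Cx3cl1, a membrane-bound chemokine, had 1.05 (0.93 to 1.17) and 0.67 (0.53 to 0.82), and Cxcl12, a ligand of CXCR4, was the lower one, at -0.99 (-1.1 to -0.88) in all gated cells and -0.58 (-0.69 to -0.46), just under the call, in Cd24a-low cells. The CXCR3 ligands were sparse, with Cxcl9 at 54 and 127 UMIs for a ratio of 1.25 (0.77 to 1.73), and Cxcl10 at -0.073 (-0.15 to 0.0059). Among death receptor, caspase and granzyme inhibitor genes, 2 of 14 were higher and 0 lower, namely Bcl2l1, an anti-apoptotic gene, at 1.1 (1.05 to 1.15), and Gsdmd, the pore-forming executor of pyroptosis, at 0.97 (0.93 to 1.01). Only Gsdmd of this list passed the call in Cd24a-low cells, at 0.61 (0.57 to 0.66), where Bcl2l1 had 0.38 (0.31 to 0.44). Serpinb9, which blocks granzyme B, had -0.15 (-0.20 to -0.10) and 0.083 (0.028 to 0.14).

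**Figure D2:**
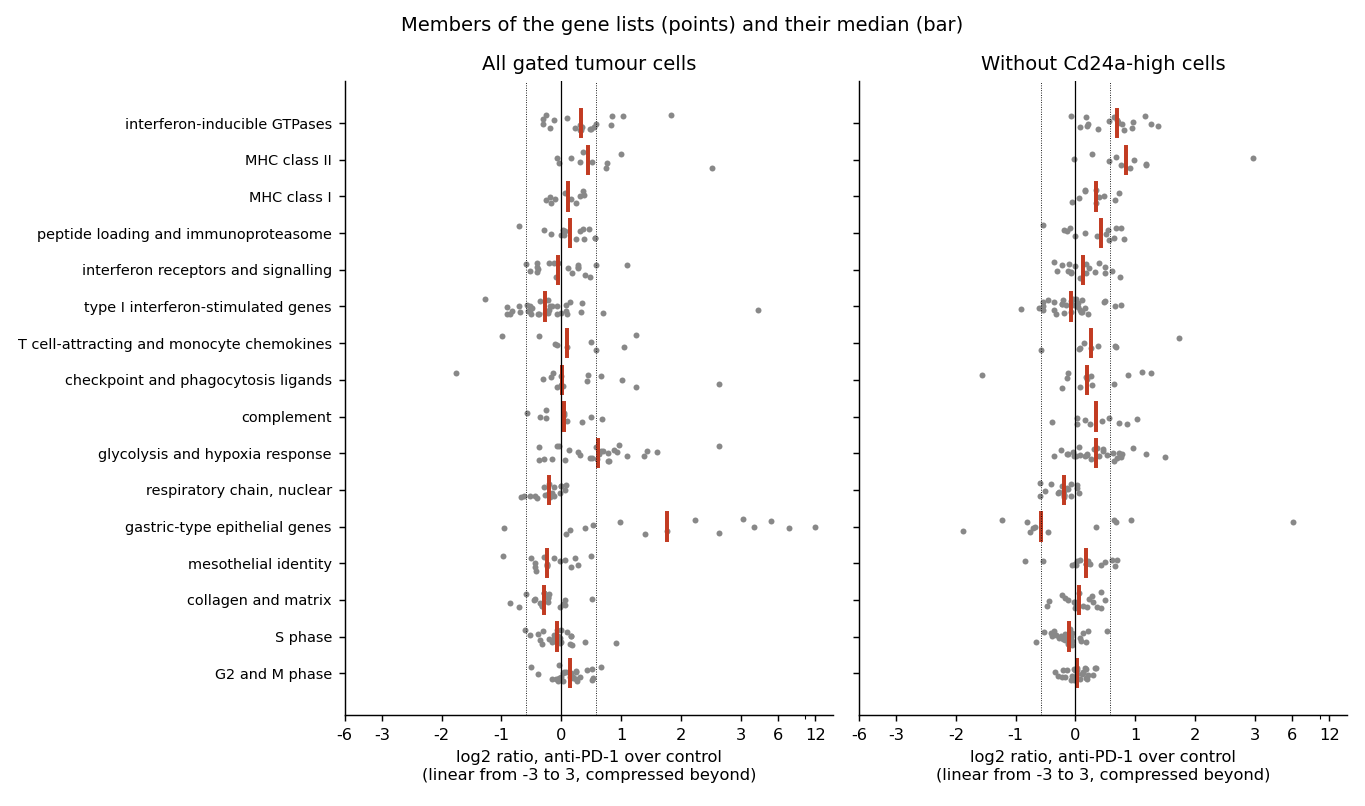
Each line of points is a gene list and each point 1 counted member, placed by the log2 of anti-PD-1 over control (linear from -3 to 3, compressed beyond), for all gated cells (left) and Cd24a-low cells (right), with a red bar at the list's median and dotted lines at 1.5-fold. The median of the interferon-inducible GTPases went from 0.33 to 0.70 between the panels and that of the gastric-type epithelial genes from 1.77 over 15 members to -0.58 over 12.

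Cells were thinned to 5115 UMIs each so that UMIs of the gene lists could be compared per cell at equal depth, and no gated cell was shallower. A control cell then held a median of 4 GTPase UMIs and an anti-PD-1 cell 5, with 7 in Cd24a-low and 2 in Cd24a-high cells of anti-PD-1. The upper part of the distribution differed more, since 10.8% of control cells (10.1% to 11.5%) and 25.3% of anti-PD-1 cells (24.4% to 26.2%) held at least 10 GTPase UMIs. That share was 33.3% in Cd24a-low and 6.5% in Cd24a-high cells of anti-PD-1, against 10.8% and 9.96% in control. Class II UMIs had a median of 12 in control and 17 in anti-PD-1, and the anti-PD-1 cells were split between Cd24a-low cells at 25 and Cd24a-high cells at 2. Class I UMIs had medians of 42 and 46, with 52 in Cd24a-low and 31 in Cd24a-high cells of anti-PD-1. Cells rich in GTPase UMIs were also rich in class II UMIs, with a Spearman correlation over thinned cells of 0.38 over 6829 control cells and 0.67 over 8782 anti-PD-1 cells, and 0.51 over the Cd24a-low cells. These cells share a library and are no replicates, and sparse counts lower such a correlation. The same measure between GTPase UMIs and UMIs of the 6 macrophage genes was 0.02 and 0.039. Class II UMIs paired with those 6 genes gave higher values, 0.063 over the control cells and 0.103 over the anti-PD-1 cells.

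**Figure D3:**
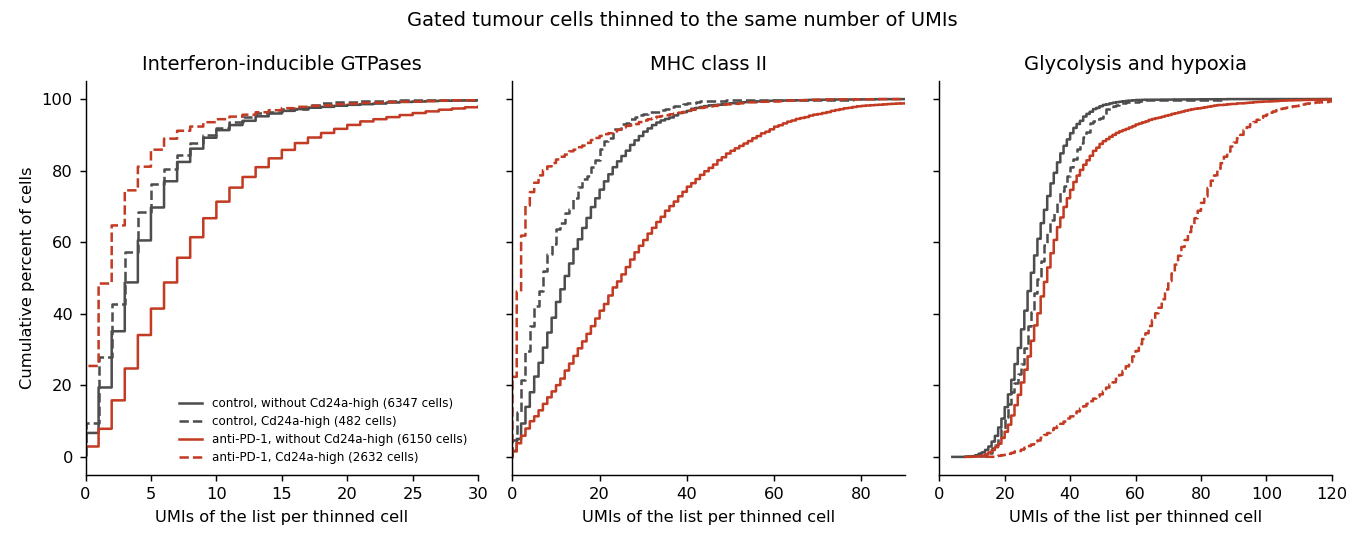
Cumulative percent of cells (vertical axis) by UMIs per cell of the interferon-inducible GTPases, MHC class II genes and glycolysis and hypoxia genes (horizontal axes) after thinning each cell to 5115 UMIs, in Cd24a-low (solid) and Cd24a-high (dashed) cells of control (grey) and anti-PD-1 (red). Cd24a-high cells of anti-PD-1 had medians of 2 GTPase and 71 glycolysis UMIs, and Cd24a-low cells 7 and 33.

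Epithelial genes of the stomach and gut gave many of the largest log2 ratios of the contrast. Gkn2 had 6 UMIs in control and 23168 in anti-PD-1, a log2 ratio of 11.93 (10.8 to 13.37), and 98.9% of the anti-PD-1 UMIs lay in Cd24a-high cells, which the gene itself helped to define. Gcnt3, a mucin-type O-glycan branching enzyme, was at 0 in control and had 2805 UMIs in anti-PD-1, which is at least 942-fold higher against a floor of 3 UMIs in the control library, and at least 77.8-fold higher in Cd24a-low cells. Muc2, the gel-forming mucin of the intestine, stood at 0.299 and 151 CPM, a ratio of 8.98 (8.38 to 9.65), and Apoa1, the main protein of high-density lipoprotein, at 3.27 and 417 CPM, a ratio of 6.99 (6.81 to 7.18). Neither Muc2 nor Apoa1 entered the definition of Cd24a-high cells, yet 94.9% and 95.4% of their anti-PD-1 UMIs lay there. The transcription factor Hnf4a, which drives hepatic and intestinal programmes, had 4 and 968 UMIs, a ratio of 7.93 (6.57 to 9.81), and Cldn18, a tight junction gene of stomach and lung, 5 and 855 UMIs, a ratio of 7.43 (6.2 to 9.06). Apoc4 rested on 2 control UMIs for a ratio of 9.83 (7.98 to 12.88), Phgr1 on 3 for 8.82 (7.27 to 11.1), and the mucin gene Muc5b on 7 for 8.42 (7.37 to 9.73). Cyp1a1, the aryl hydrocarbon receptor target, had 316 anti-PD-1 UMIs and 0 in control, which is at least 106-fold higher. In BTYNB and combination these genes were also scarce, Gkn2 at 0.0539 and 0.0896 CPM, Muc2 at 0.898 and 0.932 CPM and Apoa1 at 2.08 and 2.19 CPM, so they marked 1 library of the 4.

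Leaving out Cd24a-high cells lowered these ratios, and for some members of the gastric-type list it turned their direction. Over the gastric-type list, 10 of 15 members were higher and 1 lower with a median log2 ratio of 1.77 in all gated cells, while in Cd24a-low cells 4 of 12 were higher and 6 lower with a median of -0.58, the 4 being Cd24a, Gkn2 and Krtdap, which drew the line between the cells, and Aqp5. The count minimum left out 3 members in the second set, and with all members that had at least 1 UMI in both libraries its median was 0.06. Tff1, a trefoil peptide of gastric mucus, went from 3.16 (3.04 to 3.28) to -1.23 (-1.48 to -0.99), and Tff2 from 1.77 (1.58 to 1.95) to -1.88 (-2.31 to -1.47), both turning from higher to lower. Of the Cd24a-high cells removed, 482 were control and 2632 anti-PD-1 cells. Most genes of the stomach and gut named above stayed higher, among them Muc2 at 5.23 (4.6 to 5.93) and Apoa1 at 3.2 (2.99 to 3.42) in Cd24a-low cells. Gkn2, whose level in these cells the rule itself limits, had 6.08 (4.84 to 7.72) from 5 control and 244 anti-PD-1 UMIs. Gkn2 stood at 5.09 CPM in the Cd24a-low cells of anti-PD-1 and at 3.38 CPM in the Ptprc-positive leukocytes of that library. What part of the Gkn2 counted in Cd24a-low cells was RNA from other cells was not tested. Disp2, of the Dispatched family, went from 7.22 (6.7 to 7.79) to 4.34 (3.8 to 4.92), and Mmp13, a collagenase, from 6.7 (6.12 to 7.36) to 3.42 (2.71 to 4.22). Avil, an actin-binding gene of tuft cells and sensory neurons, went from 4.82 (4.44 to 5.22) to 1.8 (1.33 to 2.28), and Spats2l from 3.2 (2.93 to 3.49) to -0.078 (-0.52 to 0.35). Genes whose ratio moved up without those cells included Cdhr1, at -0.10 (-0.30 to 0.10) and then 0.57 (0.34 to 0.79), and Slc23a4, at 0.065 (-0.17 to 0.30) and then 0.69 (0.42 to 0.96).

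**Figure D4:**
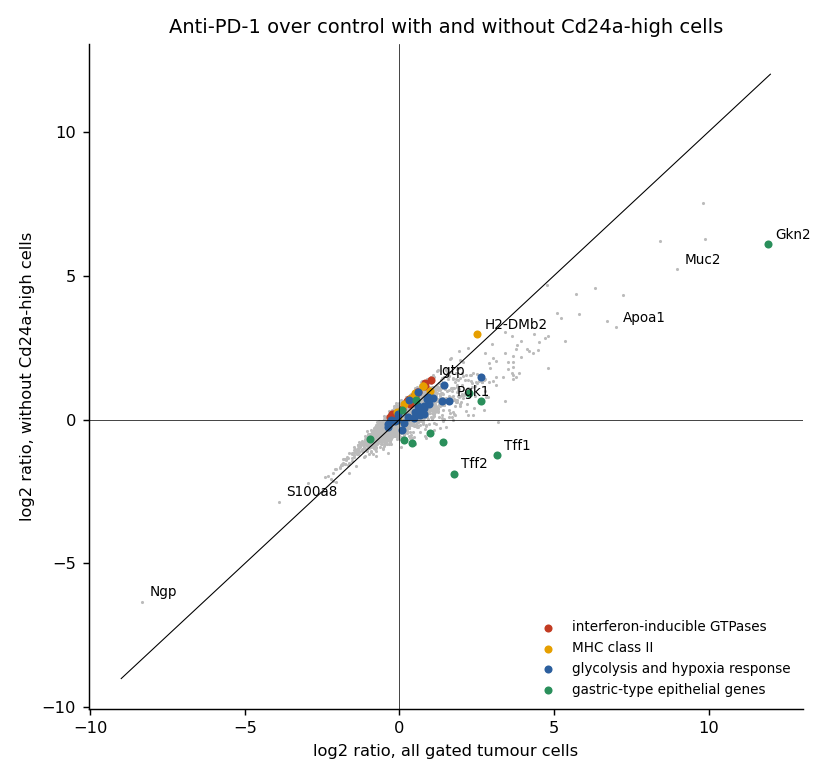
Each point is a gene counted in both cell sets, with the log2 ratio of anti-PD-1 over control in all gated cells on the horizontal axis and in Cd24a-low cells on the vertical axis. The counted interferon-inducible GTPases lie above the diagonal and Tff1 and Tff2 far below it, Tff1 at 3.16 and -1.23.

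Several genes known from other lineages were high in the same anti-PD-1 cells. Cma1, mast cell chymase, stood at 3.68 CPM in control and 208 CPM in anti-PD-1, a log2 ratio of 5.82 (5.65 to 6.0), with 86.8% of its anti-PD-1 UMIs in Cd24a-high cells. The Ptprc-positive leukocytes of the anti-PD-1 library held 4.05 CPM of Cma1 and its Cd24a-high cells 526 CPM, whereas in control the leukocytes held 74.3 CPM and the gated cells 3.68 CPM. Mcpt2, another mast cell protease, had 1 control and 408 anti-PD-1 UMIs, a ratio of 8.68 (6.2 to 13.99). Ocstamp, a fusion gene of osteoclasts, had 5.1 (4.58 to 5.66) and 3.72 (3.07 to 4.44), and Bpi, a bactericidal protein of neutrophils and epithelia, 6.33 (5.4 to 7.47) and 4.56 (3.48 to 5.91). Hapln1, a hyaluronan link protein, had nearly the same ratio with and without those cells, at 4.77 (3.77 to 6.0) and 4.67 (3.58 to 6.01), with 41.01% of its anti-PD-1 UMIs in Cd24a-high cells. Pdcd1, Pthlh and Ccr7, chosen after their values were seen, were likewise high in those cells. Pdcd1, the gene of PD-1 itself, had 26 UMIs in gated control cells and 668 in gated anti-PD-1 cells, 0.353 and 9.15 CPM, a ratio of 4.69 (4.13 to 5.32), with 80.99% of the latter in Cd24a-high cells and a ratio of 2.82 (2.19 to 3.5) without them. The T cell genes Cd3e and Cd8a held 21 and 25 UMIs in the gated anti-PD-1 cells, against 20 and 17 in control. Pthlh, parathyroid hormone-like hormone, stood at 8.86 CPM in control and 204 CPM in anti-PD-1, a ratio of 4.52 (4.41 to 4.64), and Ccr7, a chemokine receptor of lymphoid homing, at 3.002 and 46.3 CPM, a ratio of 3.95 (3.75 to 4.15).

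**Figure D5:**
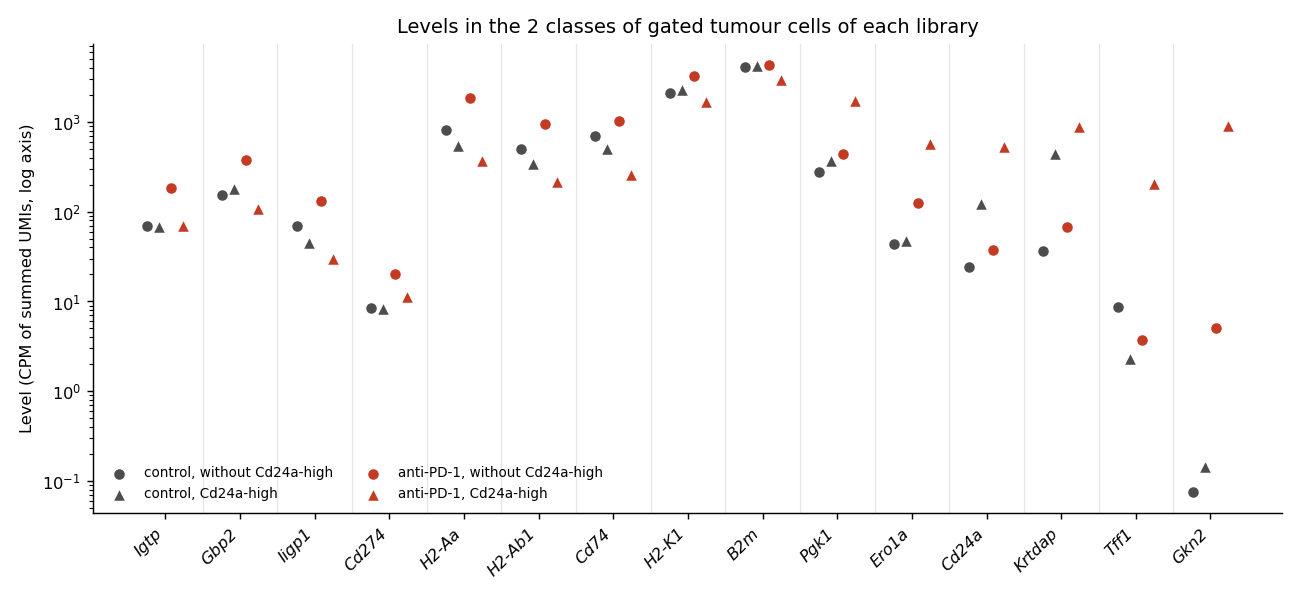
Level (CPM of summed UMIs, log axis) of named genes in Cd24a-low (circles) and Cd24a-high (triangles) cells of the control (grey) and anti-PD-1 (red) libraries, 1 point per library and cell class. In anti-PD-1, Igtp stood at 182 CPM in Cd24a-low and 69.4 CPM in Cd24a-high cells, and Gkn2 at 5.09 and 913 CPM.

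Glycolysis and hypoxia-response genes were higher in anti-PD-1 in both cell sets, with the larger part in Cd24a-high cells. Of 28 members, 15 were higher and 0 lower in all gated cells (median 0.62), and 9 and 0 in Cd24a-low cells (median 0.34). Pgk1, phosphoglycerate kinase, stood at 289 CPM in control and 879 CPM in anti-PD-1, a log2 ratio of 1.6 (1.58 to 1.63), and had 0.64 (0.61 to 0.67) in Cd24a-low cells, with 1724 CPM in the Cd24a-high cells of anti-PD-1 and 368 CPM in those of control. Ero1a, an oxidase of the endoplasmic reticulum and a hypoxia target, had the highest ratios of the list, 2.65 (2.59 to 2.7) and 1.49 (1.43 to 1.56). Pdk1, which keeps pyruvate from mitochondria, had 1.38 (1.28 to 1.49) and 0.64 (0.51 to 0.77), and Vegfa, the angiogenic factor, 0.88 (0.84 to 0.91) and 0.73 (0.69 to 0.77). Ldha, lactate dehydrogenase, had 0.67 (0.64 to 0.69) in all gated cells and 0.16 (0.14 to 0.19) in Cd24a-low cells, and Car9, the hypoxia-induced carbonic anhydrase, showed the opposite order with 0.61 (0.48 to 0.73) and 0.97 (0.84 to 1.1). Eno1 had 0.069 (0.039 to 0.10) and -0.35 (-0.39 to -0.32), so the enzymes of the pathway did not all move together in Cd24a-low cells. After thinning, the list had a median of 28 UMIs per cell in control, 33 in Cd24a-low cells of anti-PD-1 and 71 in its Cd24a-high cells, against 31 in the Cd24a-high cells of control. Nuclear-encoded respiratory chain genes had 0 of 18 higher and 2 lower (median -0.20), the lower ones being Ndufv1 of complex I at -0.67 (-0.73 to -0.60) and Sdhb of complex II at -0.62 (-0.67 to -0.56), which kept -0.60 (-0.68 to -0.53) and -0.59 (-0.66 to -0.52) in Cd24a-low cells. The 13 mitochondrially encoded genes had a median of 0.083 with 0 higher and 0 lower.

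Genes of mesothelial and ovarian surface epithelial identity had 0 of 16 higher and 1 lower in all gated cells (median -0.24) and 3 and 1 in Cd24a-low cells (median 0.18). They were low in the Cd24a-high cells of anti-PD-1, where Upk3b, a uroplakin of mesothelium, stood at 110.0 CPM against 578 CPM in its Cd24a-low cells, and Igfbp5, a binding protein of insulin-like growth factors, at 113 against 746 CPM. The 3 higher members in Cd24a-low cells were the mesothelin gene Msln at 0.66 (0.59 to 0.73), Upk1b at 0.61 (0.58 to 0.64) and the claudin gene Cldn15 at 0.69 (0.63 to 0.75), and Slpi, a protease inhibitor of epithelia, was the lower one at -0.84 (-0.96 to -0.73). Collagen and matrix genes had 0 of 19 higher and 3 lower in all gated cells (median -0.28), namely Thbs1 at -0.85 (-0.92 to -0.78), Col1a2 at -0.70 (-0.81 to -0.59) and the crosslinking enzyme gene Lox at -0.59 (-0.75 to -0.42), and none of them passed the call in Cd24a-low cells, where the median was 0.051. S100a4, a calcium-binding protein of motile cells, stood apart among epithelial and mesenchymal genes, at 25.1 CPM in control and 71.9 CPM in anti-PD-1, a ratio of 1.52 (1.44 to 1.59) and of 1.81 (1.72 to 1.9) in Cd24a-low cells.

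Proliferation genes differed little. The S phase list had 1 of 26 higher and 1 lower (median -0.072) and the G2 and M phase list 1 of 26 higher and 0 lower (median 0.15) in all gated cells, with medians of -0.11 and 0.025 in Cd24a-low cells. Rrm2, the small subunit of ribonucleotide reductase, had 0.91 (0.86 to 0.96), Cdk1, the mitotic kinase, 0.67 (0.63 to 0.70), and Mki67, the gene of the Ki-67 antigen, -0.16 (-0.20 to -0.12). A UMI of at least 1 of 5 proliferation genes was found in 69.8% of gated control and 70.9% of gated anti-PD-1 cells. Igf2bp1, the RNA-binding protein that BTYNB targets in the other arms, stood at 8.56 CPM in control and 11.6 CPM in anti-PD-1, a ratio of 0.44 (0.29 to 0.59), under the call. Within that family and its partners, 1 of 7 was higher, Hmga2, an oncofetal chromatin protein, at 22.1 CPM in control and 179.5 CPM in anti-PD-1, a ratio of 3.02 (2.95 to 3.1), and 1.34 (1.25 to 1.44) in Cd24a-low cells. Myc had -0.14 (-0.18 to -0.10) and E2f1, the S phase transcription factor, 0.056 (-0.021 to 0.13).

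Stress and metabolic lists held called genes in both directions, to be read beside 7.44% higher and 6.03% lower over all genes. The NF-kB response had 2 of 17 higher and 1 lower (median -0.045), with Tnfaip2 at 0.93 (0.88 to 0.99), the cytokine gene Lif at 0.65 (0.51 to 0.80) and the neutrophil chemokine Cxcl1 at -0.68 (-0.75 to -0.62). Immediate early genes had 1 of 22 higher and 0 lower (median -0.15), and the higher one was Fosl1, an AP-1 subunit, at 1.89 (1.78 to 1.99) and 0.97 (0.84 to 1.11) in Cd24a-low cells. Heat shock and unfolded protein response genes had 2 of 16 higher and 1 lower (median 0.053), among them the inducible chaperone Hspa1b at 2.03 (1.89 to 2.16) and Herpud1, of endoplasmic reticulum quality control, at 1.05 (1.0 to 1.1). The line lacks Trp53, and of 11 genes known as p53 targets 1 was higher, the cell cycle inhibitor Cdkn1a at 1.59 (1.49 to 1.69), and 2 lower, Sesn1 at -0.79 (-0.90 to -0.67) and Trp53inp1 at -0.82 (-0.91 to -0.72), with none called in Cd24a-low cells. Glutathione and NRF2 targets had 3 of 14 higher and 2 lower (median -0.16), the heme oxygenase gene Hmox1 at 0.80 (0.73 to 0.88) and the cystine transporter gene Slc7a11 at 1.7 (1.29 to 2.13) on one side and Gstp1, a glutathione transferase, at -0.76 (-0.82 to -0.69) on the other. Sterol and fatty acid synthesis had 0 of 17 higher and 1 lower (median -0.047), Hmgcs1, an early enzyme of the mevalonate pathway, at -0.60 (-0.66 to -0.54).

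The genes lowest in anti-PD-1 relative to control began with neutrophil granule genes. Ngp, neutrophilic granule protein, had 324 UMIs in control and 1 in anti-PD-1, a log2 ratio of -8.33 (-13.64 to -5.84), S100a8 had 670 and 45 UMIs, a ratio of -3.88 (-4.35 to -3.45), and S100a9 467 and 59, a ratio of -2.97 (-3.39 to -2.58). The leukocytes of the same libraries showed the same order, with Ngp at 192 CPM in control and 0 in anti-PD-1 and S100a8 at 219 and 12.2 CPM. Within the gated control cells these genes stood at a higher level in the Cd24a-high cells. Ngp stood there at 30.4 CPM against 1.68 CPM in Cd24a-low cells, and S100a8 at 38.1 against 6.06 CPM. The more numerous Cd24a-low cells still held 404 of the 670 S100a8 UMIs and 323 of the 467 S100a9 UMIs of control. Both neutrophil markers counted were lower, at a summed 16.6 CPM in control and 1.79 CPM in anti-PD-1, and the part of neutrophil RNA in these values was not tested. Aqp1, a water channel of mesothelium and endothelium, was the lower gene with the most UMIs of the 12 named, at 74.6 CPM in control and 13.99 CPM in anti-PD-1, a ratio of -2.41 (-2.51 to -2.32), and -1.98 (-2.08 to -1.88) in Cd24a-low cells. Cxcl15, a chemokine gene also named lungkine, had -2.31 (-2.7 to -1.94), Fhl1, a LIM domain gene, -1.82 (-2.0 to -1.64), Blnk, an adaptor of B cell signalling, -1.85 (-2.06 to -1.64), and Abcb1a, a drug efflux pump, -1.87 (-2.18 to -1.57). Esrp1, a splicing regulator of epithelia, had -2.16 (-2.63 to -1.72), and Nme2, a nucleoside diphosphate kinase, -2.16 (-2.62 to -1.72). Of 3 B cell markers counted 1 was higher and 2 lower, at a summed 19.8 CPM in control and 26.98 CPM in anti-PD-1. The higher one was Cd79a, of the B cell receptor complex, at 0.99 (0.87 to 1.11) and 0.94 (0.80 to 1.07), and the lower ones Ighm at -1.11 (-1.6 to -0.62) and Igkc. The immunoglobulin kappa gene Igkc had -1.65 (-1.94 to -1.36) and -1.85 (-2.22 to -1.5), with 410 and 130 UMIs in all gated cells. Most of these lower genes stood in BTYNB and combination nearer to anti-PD-1 than to control. They were Aqp1, Ceacam1, Fhl1, Esrp1, Cxcl15, Nme2, Abcb1a and Ngp, with Aqp1 at 16.2 and 20.1 CPM and Ceacam1 at 8.08 and 8.04 CPM. For these genes control was the library that stood apart. Blnk lay between, at 7.36 and 7.83 CPM, and Igkc stood above control, at 17.5 and 15.9 CPM. S100a8 and S100a9 lay between in BTYNB, at 2.48 and 3.29 CPM, and near anti-PD-1 in combination, at 0.86 and 0.824 CPM. The pseudogene Ftl1-ps1, whose UMIs may belong to Ftl1, had -1.41 (-1.48 to -1.34), and the predicted genes Gm47547 and Gm7879 had -2.09 (-2.41 to -1.77) and -2.04 (-2.64 to -1.49). In BTYNB and combination these too stood nearer to anti-PD-1 than to control, Ftl1-ps1 at 23.4 and 18.7 CPM.

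The same antibody was also compared on the BTYNB background, as combination over BTYNB, which uses separate libraries. The interferon-inducible GTPases had a median log2 ratio of 0.50 there in all gated cells and 0.48 in Cd24a-low cells, beside 0.33 and 0.70 for anti-PD-1 over control. Class II genes had 0.35 and 0.40 beside 0.44 and 0.84, and class I genes 0.18 and 0.17 beside 0.11 and 0.34. Type I interferon-stimulated genes had 0.33 and 0.33 beside -0.27 and -0.073, and glycolysis genes -0.15 and -0.12 beside 0.62 and 0.34. In BTYNB and combination, Igtp was at 73.5 and 132 CPM, Gbp2 at 191 and 249 CPM, and Cd274 at 13.1 and 20.5 CPM. Each contrast rests on 1 library a side, and the difference between them was not tested.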

How the data were processed

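Single-cell RNA sequencing (BD Rhapsody) was made from 4 ascites libraries, of which control and anti-PD-1 were compared here. The authors deposited raw counts, whole UMIs per gene and cell, made with the BD Rhapsody Sequence Analysis Pipeline, with GRCm39 named in the submitters' processing notes. The study's methods name Seurat and scDblFinder; no doublet caller was run here, and a setting without the top 5% of cells by UMIs stands in for it. Cells and genes were filtered and UMIs summed as described above (Python 3.11.15, NumPy 2.4.6, SciPy 1.17.1, pandas 2.3.3, matplotlib 3.10.9). Log2 ratios carry exact Clopper-Pearson intervals of the share of a gene's UMIs, and a gene at 0 is given as a bound against 3 UMIs. The ratio code was checked on simulated data. The gate and the 33 gene lists were chosen with earlier results of these data known. Named genes were list members with at least 100 UMIs in either library, the 12 highest and 12 lowest per cell set by the interval bound nearest 0, and the 10 moving most each way without Cd24a-high cells. Alternatives changed the scaling, count minimum, pseudocount, UMI floor, marker and mitochondrial limits, thinned the cells, or left out cells with macrophage or proliferation UMIs. PCR copies are collapsed by UMIs, and intervals cover counting error only. Some members of the lists are counted but not reported here by name. Promoters came from RefSeq (GRCm38.p6).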

Additional observations from a re-analysis of the deposited data

Results flagged for a closer look

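For some gene lists the median log2 ratio had one sign for anti-PD-1 over control and the opposite sign for the same antibody on the BTYNB background, with both medians at least 0.1 from 0. Each side of each contrast was 1 library and the difference was not tested. In all gated cells the type I interferon-stimulated genes had -0.27 for anti-PD-1 over control and 0.33 for combination over BTYNB, and the glycolysis and hypoxia genes 0.62 for anti-PD-1 over control and -0.15 for combination over BTYNB. Among Cd24a-low cells the glycolysis and hypoxia genes had 0.34 for anti-PD-1 over control and -0.12 for combination over BTYNB. The gastric-type epithelial genes had -0.58 for anti-PD-1 over control and 0.17 for combination over BTYNB in those cells, S phase genes -0.11 for anti-PD-1 over control and 0.13 for combination over BTYNB, and complement genes 0.35 for anti-PD-1 over control and -0.22 for combination over BTYNB. Over the alternative settings, the anti-PD-1 over control median in Cd24a-low cells ran from -0.73 to 0.06 for gastric-type genes. For S phase genes it ran from -0.22 to 0.12, so neither sign held in every setting. The gastric-type list had 12 and 10 counted members in these contrasts. It holds Cd24a, Gkn2 and Krtdap, which drew the line between the cells.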

How the results depend on the processing

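Counts of genes past 1.5-fold followed the cells kept and the count minimum. Beside 962 higher and 779 lower in all gated cells, 555 and 387 were found without Cd24a-high cells, 2201 and 1883 with a minimum of 10 UMIs in either library, 3662 and 3198 with 1 UMI in both, 560 and 438 in cells without proliferation UMIs, and the lower count was 499 with median-of-ratios scaling and 477 with 1 CPM added. Leaving out any cell with a Gkn2, Gcnt3, Muc2, Apoa1 or Cma1 UMI, a setting chosen after seeing the data, gave 402 and 356. Beside 555 and 387 in Cd24a-low cells, the counts were 1779 and 1284 at 10 UMIs, 3210 and 2193 at 1 UMI in both, 313 and 247 without proliferation UMIs, 339 higher at 300 UMIs and 232 lower with 1 CPM added. The GTPase median of 0.33 was 0.70 without Cd24a-high cells, 0.59 without proliferation UMIs and 0.76 in the added setting, which also gave -0.023 for type I genes, 0.37 for class I genes and 0.24 for glycolysis genes. The gastric-type median turned to -0.58 and -0.79, and the former was 0.06 with 1 UMI in both libraries. The log2 change of the class I to Cd274 ratio was -0.74 in all gated and -0.75 in Cd24a-low cells, and -0.57 and -0.60 in cells under 2 times the UMI floor, and -0.88 in all gated cells without proliferation UMIs. The share of anti-PD-1 cells with at least 10 GTPase UMIs was 33.3% without Cd24a-high cells. The median of 3 B cell markers turned to 0.14 and 0.66 in all gated cells, and to 0.018 and 0.61 in Cd24a-low cells, with at least 10 marker UMIs and without proliferation UMIs. Single genes turned in direction in 12 of 4506 recomputed log2 ratios: Tff1 to -1.23, Tff2 to -1.88, Spats2l to -0.078, Vsig1 to -0.76 and Ffar4 to -0.47 without Cd24a-high cells and to -1.47, -1.69, -0.55, -0.97 and -0.79 in the same order in the added setting, which also took Cdkn1a to -0.0013, and Col1a2 to 0.052 without proliferation UMIs. The causes of these shifts were not tested. Depth limits sparse genes such as Cd274, Cxcl9 and Gbp2b most. With 1 pooled library a side, differences between pools of mice, processing of the ascites and antibody cannot be told apart, and the number of cells adds no replicate. No paired analysis was possible because each group had 1 library and no test was made.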

Other observations

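Ligands of activating receptors on NK and T cells stood near the centre of the contrast. Raet1e, a ligand of NKG2D, had a log2 ratio of -0.0032 (-0.081 to 0.075) in all gated cells and -0.22 (-0.32 to -0.13) in Cd24a-low cells, and Ulbp1, another, 0.023 (-0.091 to 0.14) and 0.27 (0.15 to 0.40). Pvr, which binds both the activating receptor DNAM-1 and the inhibitory receptor TIGIT, had 0.43 (0.37 to 0.50) and 0.17 (0.10 to 0.25), and Nectin2, with the same partners, -0.30 (-0.34 to -0.26) and -0.13 (-0.17 to -0.085). Tgfb1, an immunosuppressive cytokine, stood at 5.71 CPM in control and 9.08 CPM in anti-PD-1, a ratio of 0.67 (0.49 to 0.85), and 0.26 (0.043 to 0.48) in Cd24a-low cells.

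Several genes of the gastric-type list did not follow Gkn2. Aqp5, a water channel of secretory epithelia, stood at 102 CPM in control and 146 CPM in anti-PD-1, and its ratio was 0.52 (0.48 to 0.57) in all gated cells and 0.68 (0.63 to 0.72) in Cd24a-low cells. Ctse, the gastric protease cathepsin E, was lower in both sets, at -0.96 (-1.24 to -0.68) and -0.68 (-1.0 to -0.38). Muc1, a membrane mucin, had 0.084 (-0.29 to 0.46) and 0.34 (-0.072 to 0.76). Vsig1, an adhesion gene of gastric epithelium, had 1.4 (1.3 to 1.5) with Cd24a-high cells and -0.76 (-0.93 to -0.60) without them, and Ffar4, a fatty acid receptor, 0.99 (0.91 to 1.07) and -0.47 (-0.59 to -0.35).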
